A study of Mus musculus with 9 samples.

Results

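Epithelial genes of the ovary were followed in whole-ovary RNA of 9 C57BL/6J mice aged 15 weeks. HFOB mice (3) became obese and HFLN mice (3) stayed lean on a diet with 60% fat given for 10 weeks, and control mice (3) ate standard chow with 16% fat. Membership of HFOB and HFLN therefore followed from each animal's own response to the same diet. The genes are 35 listed markers of secretory and surface epithelium: a pair of oviduct-type genes, the mesothelial genes of the ovarian surface, and general epithelial genes for keratins, junctions, transcription, splicing, surface proteases and vesicle traffic. Of these, 34 matched a row among the 33450 rows of the gene table, and all 34 reached 1 FPKM in at least 1 group. Muc16 matched no row and was not analysed here. FPKM divide a gene's fragments by transcript length and by the mapped total, so levels can be compared between genes. The table gives 1 FPKM per group with a lower and an upper bound, and no value per animal, so no test over animals was possible and no SD or p-value is given.

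The ovary is covered by a single layer of mesothelium-derived cells, the ovarian surface epithelium, which carries simple-epithelial keratins and is torn and repaired at ovulation. The oviduct next to it is lined by secretory cells, which make oviductin and are marked by Pax8, and by ciliated cells. The general epithelial programme consists of E-cadherin adhesion, tight junctions, keratin filaments and membrane-bound serine proteases with their inhibitors. How far the surface cells share it with the oviduct lining was not examined here. Granulosa and luteal cells, which make up much of the ovary, lack most of that programme. In whole tissue, fewer cells of a type and less RNA per cell cannot be told apart.

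The tissue label fitted its defining genes. Amh, the granulosa-cell hormone, stood at 187 FPKM in HFOB, 176 in HFLN and 181 in control ovaries, and Zp3, a protein of the oocyte coat, at 54.4, 53.0 and 52.2 FPKM in the same order of groups. Both the surface and the oviduct part of the epithelial label were present too: Upk3b and Msln of mesothelium stood above 8 FPKM in every group, and Ovgp1, the gene of oviductin, was by level the highest of the 34 genes. How much oviduct or bursa stayed on the dissected ovaries is not stated in the labels.

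Most matched promoters of the general epithelial genes held the same short motif. The RefSeq table of promoters (GRCm38.p6) matched 23 of the 34 genes, and the 250 bases before each start were searched on both strands. An E-box of the letters CAGGTG, the core bound by the Snail and Zeb repressors of epithelial genes such as Cdh1, lay in 14 of 17 general epithelial genes (82.4%), in 1 of 2 oviduct-type genes and in 0 of 4 mesothelial genes. Among protein-coding genes of at least 1 FPKM the share was 18.9% (2068 of 10937), and among all 27025 genes with a listed promoter 19.4%. In a separate list of other epithelial genes 6 of 11 held the letters (54.5%), and in a list of ciliated-cell genes 2 of 11 (18.2%). The remaining lists held 2 to 6 genes with a promoter and had shares of 0 to 66.7%. A match describes letters in this window and does not show that a factor binds there.

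**Figure D1:**
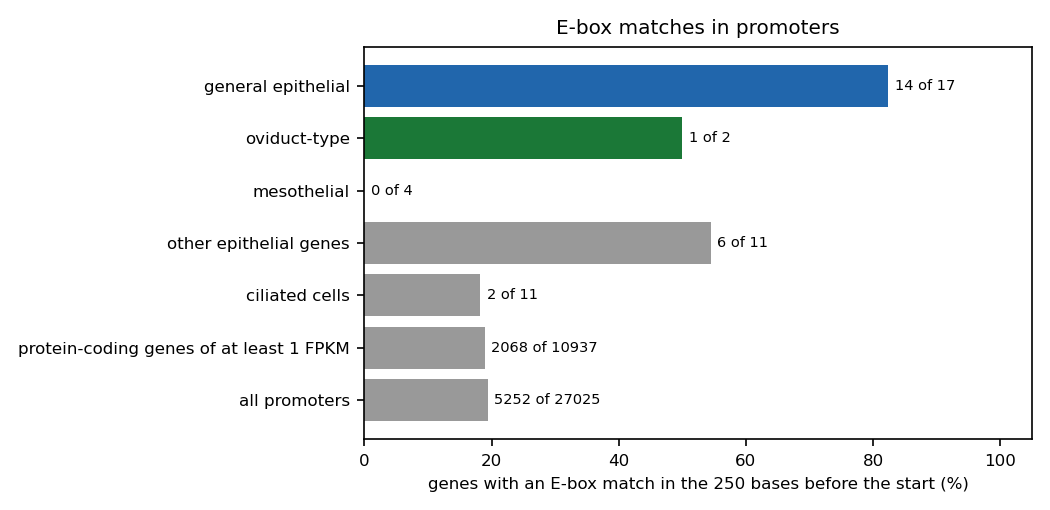
Share of genes with an E-box match in the 250 bases before the start, in percent on the horizontal axis, with the counts beside each bar. The general epithelial genes (14 of 17) and the other epithelial genes (6 of 11) stand above the 18.9% of protein-coding genes of at least 1 FPKM, while the mesothelial genes have 0 of 4.

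The windows of 5 genes are shown as examples. They are Wfdc2 with the widest difference between groups, Krt18 and Rab25 of the general epithelial genes, and Ovgp1 of the oviduct type. The last is Upk3b of mesothelium, whose window has no E-box. Each is printed 5′ to 3′ on the strand of the gene, with capitals for the E-box (CAGGTG or its complement CACCTG) and, in Rab25, for a grainyhead site (AACCNGTT). They lie at chr2:164562465-164562714 (plus strand), chr15:102027966-102028215 (plus), chr3:88548280-88548529 (minus), chr3:105973552-105973801 (plus) and chr5:136038246-136038495 (plus) of GRCm38.p6.
Wfdc2: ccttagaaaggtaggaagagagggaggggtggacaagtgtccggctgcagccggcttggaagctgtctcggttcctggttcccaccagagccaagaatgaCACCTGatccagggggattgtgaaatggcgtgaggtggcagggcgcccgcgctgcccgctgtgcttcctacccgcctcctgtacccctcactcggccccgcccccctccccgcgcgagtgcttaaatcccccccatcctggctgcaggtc
Krt18: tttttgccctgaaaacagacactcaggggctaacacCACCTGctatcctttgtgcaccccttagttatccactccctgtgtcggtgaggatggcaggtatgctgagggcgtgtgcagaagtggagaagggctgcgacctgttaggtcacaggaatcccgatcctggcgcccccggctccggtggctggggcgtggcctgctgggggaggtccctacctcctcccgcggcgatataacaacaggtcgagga
Rab25: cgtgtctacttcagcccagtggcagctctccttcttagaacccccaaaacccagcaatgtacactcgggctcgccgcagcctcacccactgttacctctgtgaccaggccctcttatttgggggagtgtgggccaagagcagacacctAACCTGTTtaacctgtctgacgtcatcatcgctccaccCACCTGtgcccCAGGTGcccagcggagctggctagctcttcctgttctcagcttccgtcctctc
Ovgp1: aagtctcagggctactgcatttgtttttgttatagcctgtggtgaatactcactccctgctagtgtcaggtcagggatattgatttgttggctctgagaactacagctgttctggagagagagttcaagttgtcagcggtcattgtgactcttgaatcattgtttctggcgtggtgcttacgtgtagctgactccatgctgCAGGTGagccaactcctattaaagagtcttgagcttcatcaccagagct
Upk3b: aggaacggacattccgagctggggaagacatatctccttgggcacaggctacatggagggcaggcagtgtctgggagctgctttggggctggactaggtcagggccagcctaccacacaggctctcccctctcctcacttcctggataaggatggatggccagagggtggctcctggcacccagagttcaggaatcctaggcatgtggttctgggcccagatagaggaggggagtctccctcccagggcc

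The E-box of Wfdc2 began at position -150 and that of Ovgp1 at -49, counted from the gene's start. Rab25 held an E-box at -64 and another at -53, downstream of its grainyhead site at -102. The grainyhead letters, bound by the family of Grhl2, were found in 2 of the 23 genes, Rab25 and Muc1 (8.7%), against 2.02% of protein-coding genes of at least 1 FPKM. The GC box (GGGCGG) was held by 60.9% against 62.3%, and the CCAAT box (CCAAT) by 17.4% against 40.1%. The letters of the TATA box (TATAAA) were found in 13.0% against 8.44%. Of these matches only that of Muc1, at -31, lay on the gene strand. Those of Gpm6a, at -211, and Marveld2, at -223 or -250 by listed start, lay on the other strand. The ETS core (CCGGAAGT) was held by 13.0% against 6.28%. The full oestrogen response element was held by 0 of 23 genes, as by 0 of the 10937 protein-coding genes and 0.0666% of all genes with a listed promoter. No matches to different motifs overlapped in these promoters. Upk1b, Msln, Krt19, Cdh1, Marveld3, Grhl2, Ehf, Esrp1, Esrp2, St14 and Prss8 had no entry.

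Levels of the 34 genes spanned more than 2 orders of magnitude. Ovgp1 alone made up 31.7% of their summed FPKM in HFOB, 35.1% in HFLN and 36.6% in control ovaries. Krt19, Spint2, Krt18 and Wfdc2 followed, and Lrrn4 and Grhl2 were the lowest, near 1 FPKM. By mean level, 8 of the 34 genes lay above the 75th percentile of the 13657 protein-coding rows of at least 1 FPKM and 11 lay above their median. The summed FPKM of the 34 genes was 968 in HFOB, 1232 in HFLN and 1008 in control ovaries, and without Ovgp1 it was 661, 799.9 and 639.

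**Figure D2:**
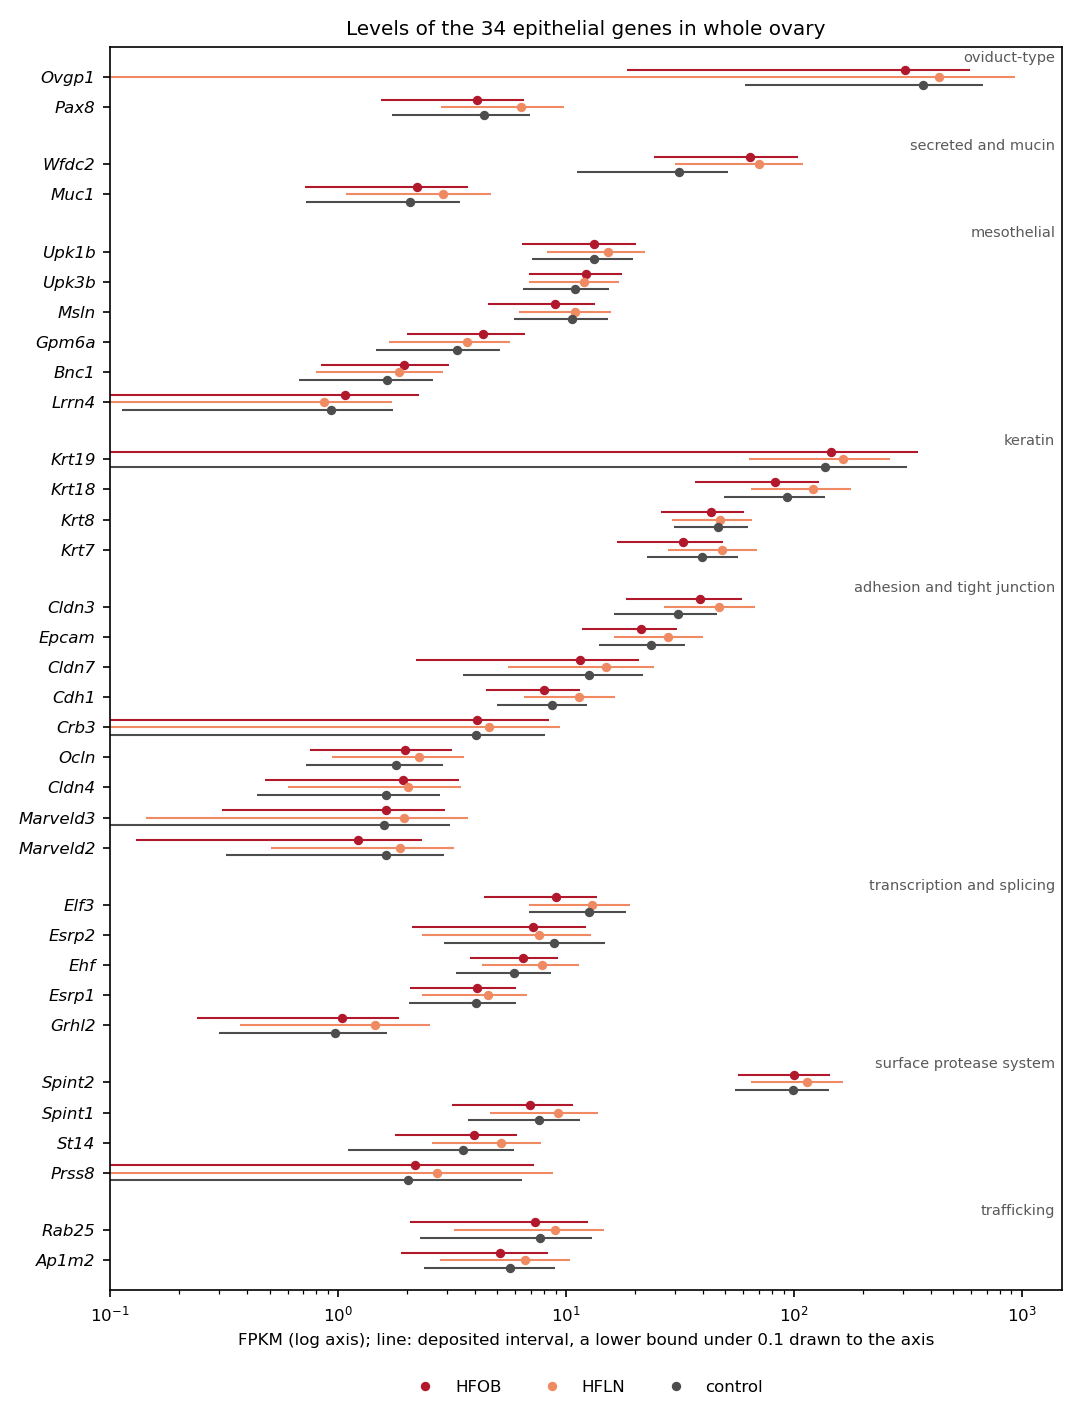
FPKM of the 34 genes (log axis) in HFOB, HFLN and control ovaries, with the deposited interval of each group value as a line and the genes grouped by role. Ovgp1 is highest at 307 to 432 FPKM, and the intervals of the 3 groups overlap for every gene.

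The deposited intervals were wide. In control ovaries the upper bound lay a median of 59.4% above the value, from 35.8% for Krt8 to 214% for Prss8, against a median of 46.3% over protein-coding rows. The lower bound was 0 in all 3 groups for Crb3 and Prss8, in HFOB and control for Krt19, in HFLN for Ovgp1 and in HFOB for Lrrn4. The rows of Krt7, Krt19, Cldn3, Crb3, Esrp2 and Prss8 span over 10 kb more than the annotated gene, and 13 of the 34 genes overlap an annotated gene on the opposite strand, so reads of neighbours may enter their values. The labels give no strand setting for the counting.

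HFLN ovaries were set against control ovaries, a comparison of diet without obesity. In these ovaries 32 of the 34 epithelial genes were higher by any amount (94.1%), against 50.9% of protein-coding rows. The median log2 difference was 0.21, on the scale of log2(FPKM + 1) that is used for every log2 value here, against 0.00 over those rows. A small difference, of at least 0.32 on that scale, was found for 8 genes, all higher in HFLN (Pax8, Wfdc2, Muc1, Krt18, Cdh1, Cldn3, Ehf and St14), which is 23.5% against 4.43% of protein-coding rows. No gene was lower by that much, against 5.49% of rows, and 2 genes, Lrrn4 and Esrp2, were lower by any amount, against 49.1% of rows. No gene met the full rule of a 2-fold difference with intervals apart, which 0.0952% of protein-coding rows met, and none was 2-fold lower, against 0.469% of rows. The intervals were wide enough to overlap at a ratio of 2.23, that of Wfdc2. In every comparison the full rule therefore could not decide whether 2-fold differences were absent.

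HFOB ovaries were compared with the same control ovaries, a comparison of mice that became obese on the high-fat diet with mice on chow. HFOB mice too were grouped by their own response, so the same limit holds. The genes split, with 19 higher and 15 lower, against 46.6% and 53.4% of protein-coding rows, and a median log2 difference of 0.01 against -0.01. Wfdc2 was the 1 gene higher by 0.32 or more and Elf3 the 1 gene lower by that much, 2.94% each against 1.99% and 5.09% of rows. None met the full rule, against 0.176% of rows, and none was 2-fold lower, against 0.396% of rows.

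HFOB and HFLN ovaries, both from mice on the high-fat diet, were compared as obese against lean animals. Since the groups followed from each animal's own response, obesity cannot be told apart from other traits that went with that response. Here 30 of the 34 genes were lower in HFOB (88.2%), against 53.5% of protein-coding rows, and 4 were higher, against 46.5%, with a median log2 difference of -0.25 against -0.01. Lower by 0.32 or more were 11 genes, 32.4% against 4.56% of rows: Ovgp1, Pax8, Krt7, Krt18, Cdh1, Epcam, Cldn7, Marveld2, Elf3, St14 and Spint1. No gene was higher by that much (2.4% of rows), none was 2-fold higher (0.11% of rows) or 2-fold lower (0.308% of rows), none met the full rule (0.0439% of rows), and no HFOB value lay outside the HFLN interval (0.718% of rows). The HFLN value enters both this comparison and that of HFLN with control. Taken by level, 29 of the 34 genes were highest in HFLN, against 36.5% of protein-coding rows, 4 in HFOB and 1 in control.

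**Figure D3:**
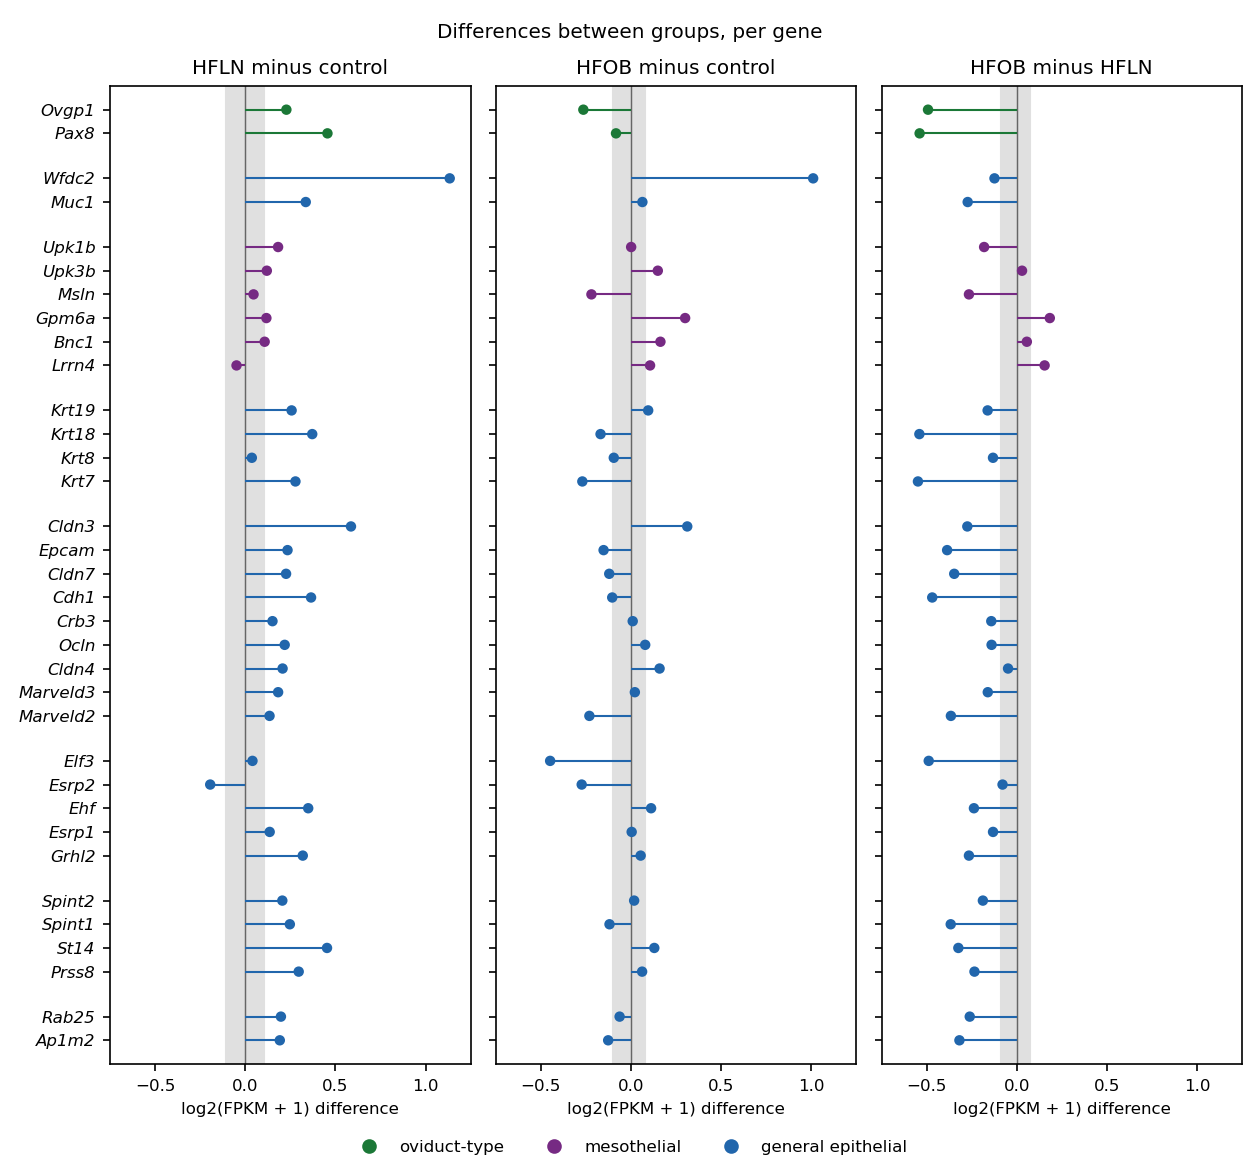
Log2(FPKM + 1) differences of the 34 genes for HFLN minus control, HFOB minus control and HFOB minus HFLN, coloured by class, with the grey band marking the interquartile range of protein-coding rows. General epithelial and oviduct-type genes lie right of 0 in the first panel, apart from Esrp2, and left of 0 in the third, while the mesothelial genes lie on both sides of 0 in the third, at -0.27 to 0.18, and Wfdc2 stands out at 1.13 and 1.01 in the first 2 panels.

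Between HFOB and HFLN the classes had unlike medians. Each of the 26 general epithelial genes had a lower level in HFOB by the row used (median log2 difference -0.26). The second row of Grhl2, under 1 FPKM, was higher in HFOB (0.637 against 0.528 FPKM in HFLN). Both oviduct-type genes were lower, at -0.49 and -0.54. Of the 6 mesothelial genes 4 were higher and 2 lower, with a median of 0.04 and a range of -0.27 to 0.18. Lrrn4, counted here as higher, reached 1 FPKM in HFOB alone, so the filter favoured that direction, and with the second row of that gene the median was -0.01. In HFLN against control the medians were 0.34 for the oviduct type, 0.11 for mesothelium and 0.23 for general epithelium, and in HFOB against control they were -0.17, 0.13 and 0.01. The mesothelial median was -0.18 between HFOB and HFLN when at least 5 FPKM was required. The differences between classes were not tested.

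Both oviduct-type genes, Ovgp1 and Pax8, were highest in HFLN. Ovgp1, which encodes the glycoprotein that oviduct secretory cells release onto the egg, stood at 307 FPKM in HFOB (interval 18.4 to 595), 432 in HFLN (0 to 937) and 369 in control ovaries (61.2 to 676). Pax8, a transcription factor of Müllerian epithelium, stood at 4.05 FPKM in HFOB (1.54 to 6.56), 6.34 in HFLN (2.84 to 9.84) and 4.35 in control (1.73 to 6.97). Both were lower in HFOB than in HFLN, by plain FPKM ratios of 0.710 and 0.639, with overlapping intervals. Pax8 overlaps Gm13415 on the opposite strand over 35182 bases, so reads of that gene may enter its value.

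Wfdc2 followed another pattern. It encodes a small secreted protein of the whey acidic protein family, also known as HE4, made by many glandular epithelia. Its level was 64.2 FPKM in HFOB (24.2 to 104), 70.0 in HFLN (30.2 to 109.8) and 31.3 in control ovaries (11.2 to 51.5). Both diet groups were thus high and the chow group low, at plain ratios of 2.05 for HFOB over control and 2.23 for HFLN over control, and the intervals still overlapped. The log2 differences were 1.01 and 1.13, and 0.0732% and 0.0513% of protein-coding rows were at least as high. No other gene of the 34 passed 2-fold in any comparison, a rule that 0.0659% of rows passed upward in HFLN and 0.0732% in HFOB against control. The diet value of Wfdc2 lay above the control interval in both comparisons, and that of Cldn3 did so in HFLN, against 1.14% of rows outside it on either side in HFLN and 0.85% in HFOB. The FPKM ratio of Ovgp1 to Wfdc2 was 4.78 in HFOB, 6.17 in HFLN and 11.8 in control, so these secreted products did not keep 1 proportion. Control values enter both comparisons.

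Muc1, a membrane mucin of glandular surfaces, was low at 2.21 FPKM in HFOB, 2.88 in HFLN and 2.07 in control ovaries.

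Mesothelial genes had differences of both signs between HFOB and HFLN, from -0.27 for Msln to 0.18 for Gpm6a. Upk3b, a uroplakin that marks mesothelium, stood at 12.3 FPKM in HFOB (6.90 to 17.7), 12.02 in HFLN (6.89 to 17.1) and 10.99 in control (6.47 to 15.5). Upk1b, a tetraspanin uroplakin, stood at 13.3, 15.2 and 13.3 FPKM, in the order HFOB, HFLN and control. Msln, the cell-surface protein mesothelin, stood at 8.98 FPKM in HFOB, 10.99 in HFLN and 10.6 in control. These were the better expressed of the class, and no pair of groups differed by as much as 0.32 on the log2 scale.

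The other mesothelial genes were low. Gpm6a, a membrane glycoprotein best known from neurons, was at 4.31 FPKM in HFOB (2.01 to 6.60), 3.67 in HFLN (1.68 to 5.67) and 3.31 in control (1.47 to 5.15), with a log2 difference of 0.30 for HFOB against control. Bnc1, a zinc-finger factor also found in germ cells, was at 1.95, 1.84 and 1.64 FPKM in the same order of groups. Lrrn4, a leucine-rich repeat membrane protein, was at 1.08 FPKM in HFOB, 0.865 in HFLN and 0.929 in control, and it reached 1 FPKM in HFOB alone. Upk3b, Gpm6a, Bnc1 and Lrrn4 were the 4 of the 34 genes with their highest level in HFOB.

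Keratins of simple epithelia were high, with a median log2 difference of -0.35 between HFOB and HFLN. Krt18 stood at 82.9 FPKM in HFOB (36.9 to 129), 121 in HFLN (64.7 to 177) and 93.3 in control ovaries (49.4 to 137). Krt8, which pairs with keratin 18 in filaments, stood at 43.3 FPKM in HFOB (26.2 to 60.3), 47.5 in HFLN (29.3 to 65.7) and 46.3 in control (29.7 to 62.9). The pair lies side by side on chromosome 15, Krt8 at 101996711 to 102004342 and Krt18 at 102028216 to 102032026, 23.9 kb apart, yet the FPKM ratio of Krt18 to Krt8 was 1.92 in HFOB, 2.55 in HFLN and 2.02 in control.

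Krt7 showed the widest log2 difference of the 34 genes between HFOB and HFLN, -0.55. It stood at 32.7 FPKM in HFOB (16.7 to 48.7), 48.3 in HFLN (28.0 to 68.6) and 39.7 in control (22.6 to 56.7). Krt19 stood at 146 FPKM in HFOB (0 to 350.1), 164 in HFLN (63.5 to 264) and 137 in control (0 to 313), so its differences lay far inside its intervals. The rows of both span more than the annotated gene, 101.8 kb for a gene of 15.4 kb in Krt7 and 88.9 kb for 5.12 kb in Krt19.

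Adhesion and tight-junction genes were higher in HFLN than in control in 9 of 9 cases and lower in HFOB than in HFLN in 9 of 9. Cdh1, the E-cadherin of adherens junctions, stood at 8.00 FPKM in HFOB (4.44 to 11.6), 11.5 in HFLN (6.52 to 16.4) and 8.67 in control (5.00 to 12.3). Epcam, an epithelial adhesion molecule that binds claudins, stood at 21.2 FPKM in HFOB (11.8 to 30.7), 28.0 in HFLN (16.3 to 39.8) and 23.7 in control (14.0 to 33.4). HFOB and control lay close together in both genes, and HFLN was the high group.

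Among the claudins, which form the strands of tight junctions, Cldn3 was the most abundant. It stood at 38.8 FPKM in HFOB (18.3 to 59.2), 47.1 in HFLN (26.9 to 67.2) and 31.0 in control (16.2 to 45.9), a log2 difference of 0.59 for HFLN against control. Its neighbour Cldn4, 39.3 kb away on chromosome 5, was at 1.93, 2.03 and 1.62 FPKM in the order HFOB, HFLN and control, and Cldn7 at 11.6, 15.0 and 12.7. Cldn3 thus exceeded Cldn4 by FPKM ratios of 20.1, 23.2 and 19.1 in that order. Both were lowest in control, while Cldn7 was lowest in HFOB.

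The remaining junction genes stood between 1 and 5 FPKM. Ocln, the tight-junction protein occludin, was at 1.96 FPKM in HFOB, 2.26 in HFLN and 1.80 in control. Marveld2, which encodes tricellulin at the corners where 3 cells meet, lies 43.2 kb from Ocln on chromosome 13 and was at 1.23 FPKM in HFOB, 1.87 in HFLN and 1.61 in control. Its relative Marveld3 was at 1.63, 1.94 and 1.59 FPKM, and Crb3, a small apical-polarity protein, at 4.06, 4.58 and 4.03 FPKM, in the same order of groups.

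Of the 5 genes for transcription factors and splicing regulators, 4 were higher in HFLN than in control and 5 were lower in HFOB than in HFLN. Elf3, an ETS factor of differentiated epithelium, was lowest in HFOB: 9.00 FPKM (4.36 to 13.6), against 13.0 in HFLN (6.88 to 19.2) and 12.6 in control (6.88 to 18.4). The log2 difference of HFOB was -0.49 against HFLN and -0.45 against control. Elf3 overlaps Gm26642 on the opposite strand over 4994 bases, so reads of that gene may enter its value. Ehf, a related ETS factor, was lowest in control, at 6.49 FPKM in HFOB, 7.83 in HFLN and 5.93 in control. Grhl2, a grainyhead factor that activates Cdh1 and claudin genes, was near the 1 FPKM limit, at 1.04 in HFOB (0.240 to 1.84), 1.45 in HFLN (0.369 to 2.54) and 0.967 in control (0.300 to 1.63).

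Esrp1 and Esrp2 direct the epithelial forms of alternatively spliced transcripts. Esrp1 stood at 4.05 FPKM in HFOB, 4.53 in HFLN and 4.04 in control. Esrp2 stood at 7.15 FPKM in HFOB, 7.61 in HFLN and 8.85 in control, and was the 1 gene of the 34 highest in control. Its row spans 79.1 kb for a gene of 6.88 kb, and the gene overlaps Nfatc3 on the opposite strand.

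The surface protease system joins St14, the membrane protease matriptase, and Prss8, prostasin, with their Kunitz-type inhibitors Spint1 and Spint2. St14 stood at 3.94 FPKM in HFOB (1.78 to 6.09), 5.18 in HFLN (2.57 to 7.79) and 3.52 in control (1.11 to 5.92). Spint1 stood at 6.95 FPKM in HFOB, 9.25 in HFLN and 7.64 in control, and Prss8 at 2.17, 2.73 and 2.03 FPKM with a lower bound of 0 in each group. Spint2 was far more abundant, at 100.2 FPKM in HFOB, 114 in HFLN and 99.0 in control. All 4 genes were highest in HFLN, and the FPKM ratio of Spint1 to St14 was 1.77 in HFOB, 1.79 in HFLN and 2.17 in control.

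Both trafficking genes had the same order. Ap1m2, the adaptor subunit that sorts cargo to the basolateral membrane, stood at 5.11 FPKM in HFOB, 6.62 in HFLN and 5.67 in control. Rab25, a small GTPase of apical recycling, stood at 7.29 FPKM in HFOB, 8.93 in HFLN and 7.66 in control.

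Gene lists of other cells showed what moved beside these genes. The 14 markers of ciliated cells, which line the oviduct with the secretory cells, were higher in HFLN than in control in 14 of 14 cases and lower in HFOB than in HFLN in 14 of 14. Their median log2 differences were 0.60 for HFLN against control, -0.36 for HFOB against control and -1.01 for HFOB against HFLN, wider than those of the epithelial genes, and their summed FPKM was 219 in HFOB, 421 in HFLN and 279 in control ovaries. Tmem212 and Sec14l3 had the widest log2 differences between HFOB and HFLN, -1.36 and -1.35. The part of the ciliated cells' lining in the epithelial result was not tested.

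**Figure D4:**
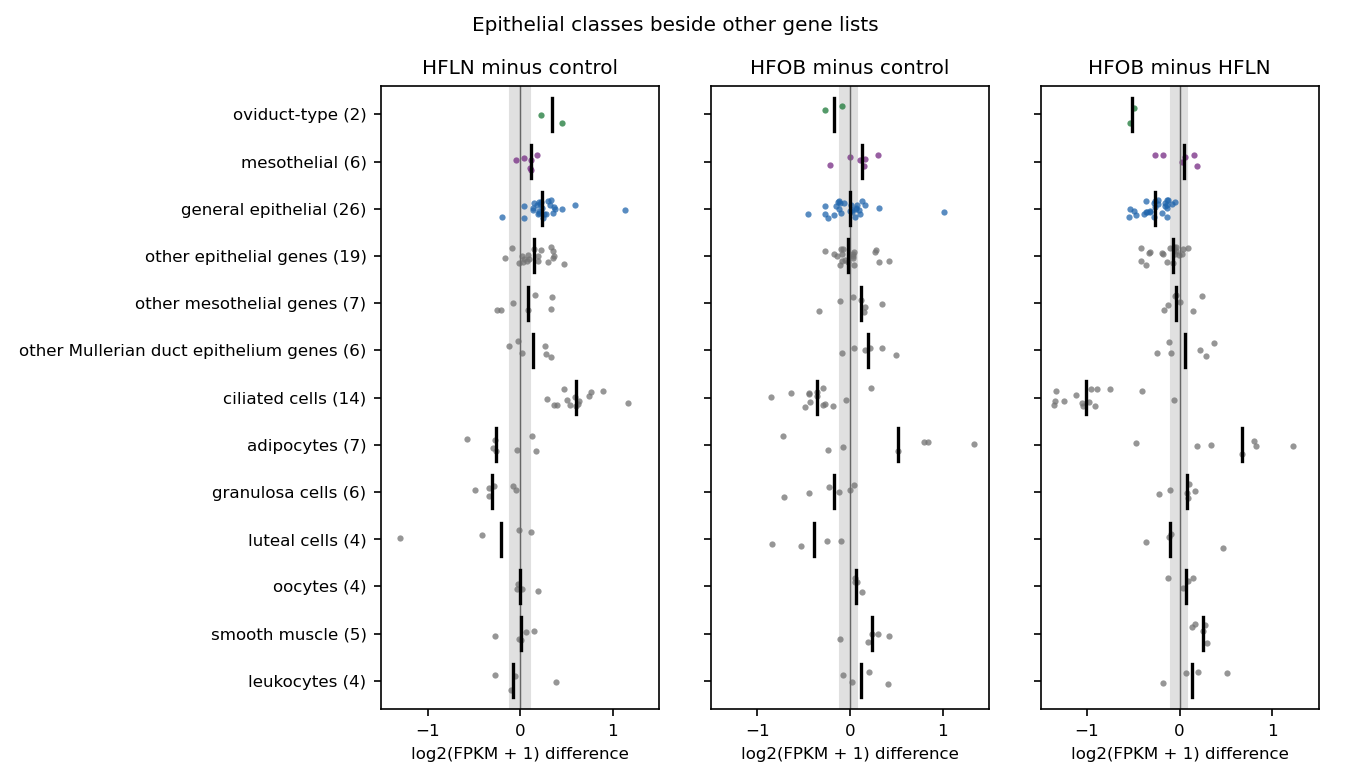
Log2(FPKM + 1) differences of single genes (points) and their medians (black bars) for the 3 epithelial classes and 10 other gene lists in the 3 comparisons, with the number of genes in brackets and the interquartile range of protein-coding rows in grey. Ciliated-cell genes have a median of -1.01 for HFOB minus HFLN, against -0.52 for the oviduct type, -0.26 for general epithelium and 0.04 for mesothelium.

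Epithelial genes outside the 34 followed with smaller differences. Of 19 other epithelial genes, 16 were higher in HFLN than in control, against 50.9% of protein-coding rows. Lower in HFOB than in HFLN were 16, against 53.5% of rows. Ovol2 reached 1 FPKM in HFLN alone, so the filter favoured its adding to both counts. The medians were 0.15 and -0.07, the latter inside the interquartile range of protein-coding rows (-0.09 to 0.08). The summed FPKM of the list was 174 in HFOB, 183 in HFLN and 179 in control. Krtcap3 and Tjp3, a tight-junction scaffold, were the widest between HFOB and HFLN, both at -0.42. Of 7 other mesothelial genes 3 were higher and 4 lower in HFOB than in HFLN, with a median of -0.04 and a summed FPKM of 123, 130.4 and 114 in HFOB, HFLN and control. Prg4 and Wt1 were widest there, at 0.24 and -0.17, and Itln1 was listed at 0 in every group. Of 6 other genes of Müllerian duct epithelium, 3 were higher and 3 lower in HFOB than in HFLN, with a median of 0.06 and a summed FPKM of 94.7 in HFOB, 80.5 in HFLN and 74.9 in control. Folr1 and Wnt7a were widest at 0.37 and 0.28, and Wnt7a reached 1 FPKM in HFOB alone, so the filter favoured its being higher there. Sox17, a transcription factor of the duct, stood at 11.9 FPKM in HFOB, 10.0 in HFLN and 8.17 in control, and Folr1, a folate receptor, at 61.2, 47.0 and 47.9 FPKM, both highest in HFOB, unlike Ovgp1 and Pax8. Sox17 was chosen after its values were seen.

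Lists of further cell types gave the setting. Between HFOB and HFLN the median log2 difference was 0.67 for adipocyte genes, 0.26 for smooth muscle, 0.13 for leukocytes, 0.08 for granulosa cells, 0.06 for oocytes and -0.10 for luteal cells. The widest log2 differences between HFOB and HFLN in each list were 1.22 for Lep and 0.83 for Cidec of adipocytes, 0.29 for Des and 0.27 for Lmod1 of smooth muscle, and 0.51 for Lyz2 and 0.20 for Cd52 of leukocytes. They were -0.23 for Cyp19a1 and 0.16 for Fshr of granulosa cells, 0.15 for Gdf9 and -0.12 for Bmp15 of oocytes, and 0.46 for Akr1c18 and -0.37 for Prlr of luteal cells. The row of Akr1c18 is shared with Akr1c12 and had a lower bound of 0 in every group, and the row of Lyz2 is shared with Lyz1. For HFLN against control the lists' median was -0.26, 0.01, -0.07, -0.31, 0.00 and -0.21, with the lists in the order of their first mention. For HFOB against control it was 0.51, 0.24, 0.12, -0.17, 0.07 and -0.39. Lep, the gene of leptin, was the 1 gene of these lists to meet the full rule, at 2.101 FPKM in HFOB (0.759 to 3.44), 0.332 in HFLN (0.0392 to 0.625) and 0.223 in control (0 to 0.455). Lep reached 1 FPKM in HFOB alone, so the filter favoured its being higher there, and it also enters the adipocyte medians. The summed FPKM of the adipocyte list was 265 in HFOB, 215 in HFLN and 234 in control, and its part in the epithelial differences was not tested.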

How the data were processed

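Ovarian RNA of 9 mice in 3 groups was sequenced, per the labels. The authors deposited 1 FPKM per gene and group with lower and upper bounds, at a confidence level not given in the sources used here; depth per animal is likewise unknown. Per the submitters' processing notes, the build was mm10 and the tools included Cuffdiff 2.2.1.3, Cufflinks 2.2.1.0, TopHat2 2.1.0 and Trimmomatic 0.32.3.

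RefSeq identifiers were mapped to symbols through the annotation of GRCm38.p6 (99.2% of 36886 matched). For symbols with several rows the one of highest mean FPKM was used, kept at 1 FPKM or more in any group. Differences are of log2(FPKM + 1), which understates those of low genes. The full rule asked for 2-fold and intervals apart, a weaker one for 0.32 log2 units, and both were set against protein-coding rows of at least 1 FPKM with status OK. The rule was tested on simulated data, but the outcome is not given here. Upper bounds of the epithelial genes lay a median of 55.8% to 59.4% above the value, by group. At such widths a 2-fold difference can leave intervals overlapping, so failing the full rule does not show that a difference was absent. Computation used Python 3.11.15, pandas 2.3.3, numpy 2.4.6 and matplotlib 3.10.9.

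Every member is named, and of each other list the 2 genes widest between HFOB and HFLN. Members and lists were chosen with earlier results of these data known.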

Additional observations from a re-analysis of the deposited data

How the results depend on the processing

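Each group is 1 value, so no animal could be left out. No paired analysis was possible because the table holds no value per animal. With 5 FPKM required, 22 genes were left, and the median log2 difference became -0.10 for HFOB against control over all of them, -0.10 for its general epithelial genes and 0.00054 for its mesothelial genes. Between HFOB and HFLN the mesothelial median became -0.18. Pax8 and St14 reached 5 FPKM in HFLN alone, so this filter favoured their being high in that group. With no rule on the intervals, 1 gene (Wfdc2) met 2-fold in HFLN and 1 in HFOB against control. With a pseudocount of 0.1 FPKM, 4 genes passed 0.32 log2 units in HFOB against control, where 2 had. All other medians stayed within 0.105, 0.0895 and 0.0829 log2 units, which is 0.5 of the interquartile range of protein-coding rows in HFLN against control, HFOB against control and HFOB against HFLN. Near 0, 2 medians changed sign under settings that changed the rows used: general epithelium in HFOB against control, to -0.03 with rows summed, with second rows or without the 6 widely spanning rows, and mesothelium between HFOB and HFLN, to -0.01 with second rows. Second rows and leaving out wide rows were chosen after seeing the data. Of 660 values of single genes under other settings 11 changed sign, all of Lrrn4, Marveld2, Grhl2 or Spint2.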

Other observations

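Lrrn4, Marveld2, Grhl2 and Spint2 each had a second row. The second row of Spint2 stood at 54.9 FPKM in HFOB, 78.0 in HFLN and 66.3 in control, a log2 difference of -0.50 between HFOB and HFLN, against -0.19 in its first row. The second row of Grhl2 stood at 0.637 FPKM in HFOB, 0.528 in HFLN and 0.828 in control, and so ran the other way from its first row. The second row of Marveld2 stood at 1.32, 1.53 and 0.913 FPKM and that of Lrrn4 at 0.688, 0.758 and 0.627 FPKM, in the order HFOB, HFLN and control. Whether the rows of a gene lie on different strands or cover different parts of it was not examined.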
